A study of Mus musculus with 32 samples.

Results

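Synovium is the tissue that lines the joint capsule, and the comparison described here set the synovium of C57BL/6 mice labelled MMS D14 against that of mice labelled Control. Each group had n = 3 samples, and all 1178 genes of the deposited synovium table were taken, a table that itself holds selected genes. The study has 32 samples, 18 of synovium and 14 of cartilage, and its other groups are MMS D3, MMS D7, R1 and R2 in both tissues and MMS D28 in cartilage only. MMS, R1 and R2 are not explained in the labels, which give no unit for the number after D, and name no age, sex, genotype or agent beyond the strain. Whether each replicate is its own animal is not stated, so p-values measure only the spread between these samples, which may be technical. Values are recorded as FPKM, fragments per kilobase of transcript scaled to sequencing depth, and read depth is unknown.

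The synovium has an inner lining of fibroblasts and macrophages over a looser sublining that carries vessels, nerves and, in many joints, a pad of fat cells. Fibroblasts lay down collagen as a precursor that is hydroxylated and trimmed, then cross-linked outside the cell by lysyl oxidases, and decorated by small leucine-rich proteoglycans. Metalloproteinases cut this matrix and their tissue inhibitors restrain them. Fat cells store triglyceride, release it by lipolysis and secrete hormones such as adiponectin and leptin.

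The table holds selected genes: 1155 of 1178 (98%) differed at least 1.5-fold between the means of MMS D14 and Control, so the number of called genes is mostly fixed by that selection and only sizes and directions are informative. Nearly every value in it was at least 1 FPKM, with 6 exceptions among 21204. In the 5 libraries that are replicate 3 of MMS D14, Control, R2, MMS D3 and MMS D7, the predicted gene Gm2023 was 1.71 to 3.36 FPKM, against 12.6 to 56.2 FPKM in the other 13, so both groups compared here hold 1 library of that kind. Without those 5 libraries, 322 genes were called higher and 821 lower, against 326 and 816 with them. The labels name no batch for these libraries.

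Fat-cell and lipid genes were lower and matrix, cell-division and tendon genes were higher in MMS D14 than in Control synovium. By limma on log2 of FPKM plus 1, with p-values adjusted over all 1178 genes and a threshold of 0.05, 1142 genes (96.9%) were called, 326 higher (27.7%) and 816 lower (69.3%). The log2 change was 1.56 at the median of the genes called higher and -1.34 at the median of those called lower. Changes of at least 3 on the log2 scale, in contrast, were about equally common in the 2 directions, with 25 genes higher and 22 lower. The median change over all 1178 genes was -1.08, and each list median below is to be read against it. Each list count is likewise to be read against 27.7% higher and 69.3% lower. With each sample centred on its own median, which added 0.52 to the changes, 335 genes were called higher and 678 lower. That median is taken over selected genes, most of them lower, so centring cannot tell a shift of scale from the selection. Centring by itself makes falls smaller and rises larger here. All MMS D14 samples lay above all Control samples for 322 genes (27.3%) and below them for 813 (69.0%), together 96.3% of the table, and the groups overlapped for 43.

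**Figure D1:**
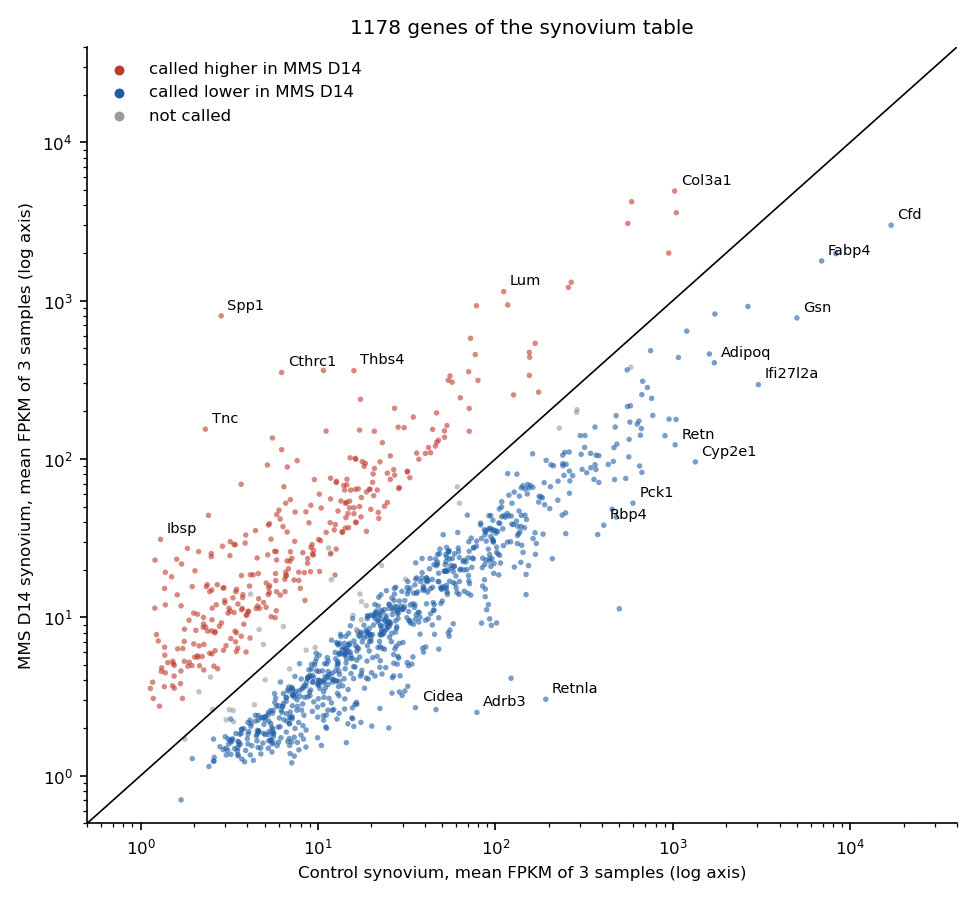
Mean FPKM of each of the 1178 genes in Control (horizontal) and MMS D14 synovium (vertical), n = 3 samples each, on log axes; the line marks equal means. Cfd and Fabp4 lie below the line among the most abundant genes of Control, and Col3a1 lies above it at 4926 FPKM, the highest mean in MMS D14.

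The most abundant transcripts of the table exchanged places between the groups. Cfd, which encodes the complement protease adipsin secreted by fat cells, headed the Control means at 17011 FPKM, followed by Car3, Fabp4 and Gsn. In MMS D14 the highest means belonged to Col3a1, Col1a1, Bgn and Col1a2, with Cfd the fifth at 2998 FPKM. The 41 adipocyte genes of the table made up 35.2% to 36.7% of the FPKM listed for a Control sample and 10.7% to 15.6% of that listed for an MMS D14 sample. The 12 collagen genes made up 2.40% to 2.48% in Control and 19.1% to 24.0% in MMS D14. The listed FPKM summed to 114194 to 132996 in Control samples and to 70105 to 74664 in MMS D14 samples. These shares are shares of the selected genes and not of all RNA. Car3, Bgn, Col1a1 and Fabp4 were named after their values were seen.

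All 12 measured genes for collagen chains rose, with a median log2 change of 2.29. The table holds 12 of the 26 collagen genes that were looked for, and their changes ran from 1.04 for Col5a3 to 2.83 for Col1a1. Col5a2, a chain of collagen V, which sets the width of collagen fibrils, was 75.8, 74 and 81.4 FPKM in the Control samples and 459, 454 and 457 FPKM in the MMS D14 samples. Its change was 2.55 ± 0.17 (SE; adjusted p = 3.48e-09), and the groups were far apart with little spread within either. Col16a1, a collagen that associates with fibrils without forming them, went from 8.85, 10.5 and 9.28 FPKM to 74.8, 82.6 and 65.2 FPKM (2.83 ± 0.2, adjusted p = 5.03e-09). Col3a1, the main chain of the fine fibrils of young scar, was 1099, 998 and 976 FPKM in Control and 4930.1, 4929.6 and 4919.6 FPKM in MMS D14, where the 3 samples nearly coincided. Its means were 1601 FPKM in MMS D3, 3549.9 in MMS D7, 2072 in R1 and 2385 in R2. MMS D14 replicate 3 was the lowest of its group for Col1a1, at 3220.3 FPKM against 4631 and 4796, and still above every Control sample, the highest of which was 625.

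Enzymes and chaperones that mature collagen rose with it in 13 of 15 measured cases, and 2 fell (median 1.64). Lox, the lysyl oxidase that starts collagen and elastin cross-links, was 15.9, 16 and 19.6 FPKM in Control and 167, 138 and 152 FPKM in MMS D14 (3.08 ± 0.19, adjusted p = 2.12e-09). Lox was already 189.5, 137 and 184 FPKM in the MMS D3 samples, while Col5a2 was 193, 179 and 127 FPKM there. P4ha3, a catalytic subunit of collagen prolyl 4-hydroxylase, rose from 2.77, 2.18 and 2.3 FPKM to 51.9, 45.3 and 35 FPKM (ratio of means 18.2). Plod2, the lysyl hydroxylase of collagen telopeptides, rose by 2.57, and Fkbp11, a prolyl isomerase of the endoplasmic reticulum, rose by 2.61. Against the list, Tgm2, a transglutaminase that cross-links matrix proteins, fell from 152, 144 and 132 FPKM to 70, 70 and 63.3 FPKM. Pcolce2, an enhancer of procollagen C-proteinase, fell from 92.7, 105 and 94.6 FPKM to 36.3, 33.7 and 37.4 FPKM (-1.42, adjusted p = 8.28e-07).

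Among non-collagen matrix glycoproteins 24 of 26 measured genes rose and 2 fell (median 2.21). Spp1, which encodes osteopontin, had the largest rise of the table, at 2.87, 3.06 and 2.62 FPKM in Control and 529, 595 and 1281 FPKM in MMS D14. The MMS D14 samples differed among themselves by more than 2-fold, replicate 3 being the highest, and the lowest of them was still far above Control. Cthrc1, a secreted protein of remodelling matrix, was 4.55, 7.05 and 7.12 FPKM and 379.7, 358 and 318 FPKM, a change of 5.62 ± 0.36. Tnc, the tenascin made in developing and injured connective tissue, was 2.19, 2.59 and 2.18 FPKM and 199.6, 156 and 108 FPKM, with replicate 1 the highest. Wisp2, a matricellular protein gene, was 17.2, 21.6 and 13.3 FPKM and 234, 227 and 254 FPKM (3.73 ± 0.18, adjusted p = 3.18e-10), the smallest adjusted p of the table. Postn, which encodes periostin, rose from 75.2, 74.3 and 85.3 FPKM to 952, 896 and 939 FPKM, and Mfap4, a microfibril protein gene, from 8.02, 5.78 and 4.93 FPKM to 129, 136 and 78.2 FPKM. The 2 members that fell were Tnxb, a tenascin of loose connective tissue, from 121, 119 and 85.7 FPKM to 55.9, 51.5 and 42.3 FPKM, and Ctgf. Ctgf, a matricellular gene that responds to TGF-beta and to mechanical load, was 484, 585 and 590.3 FPKM in Control and 333, 431 and 333 FPKM in MMS D14 (-0.6, adjusted p = 0.00281). After centring the change of Ctgf was -0.08 (adjusted p = 0.647), so the call for its fall depended on the scaling.

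Proteoglycan and hyaluronan genes rose in 10 of 14 measured cases, 3 fell and 1 was not called (median 1.76). Lum, the collagen-binding proteoglycan lumican, was 112, 111 and 111 FPKM in Control, almost the same in all 3, and 971, 1208 and 1241 FPKM in MMS D14 (3.33 ± 0.2, adjusted p = 2.12e-09). Fmod, for the related fibromodulin, was 19.6, 6.39 and 6.26 FPKM and 339.9, 465 and 282 FPKM, and Control replicate 1 was about 3-fold above the other 2. Tnfaip6, whose product transfers proteins onto hyaluronan, was 3.65, 4.19 and 3.23 FPKM and 83.2, 42 and 82.5 FPKM, with MMS D14 replicate 2 well below the other 2. The membrane proteoglycan genes Gpc1 (2.82) and Sdc1 (1.99) also rose. Chst1, a sulfotransferase of keratan sulfate, went the other way, from 90.3, 88.7 and 84 FPKM to 12.9, 15 and 12.6 FPKM, a fall of 2.62 on the log2 scale. Podn, a small leucine-rich proteoglycan, fell by 1.35 and Spock2 by 0.86, though after centring Spock2 no longer passed (adjusted p = 0.0937). Has2, a hyaluronan synthase, was 2.53, 2.58 and 2.32 FPKM and 5.02, 2.71 and 4.86 FPKM and did not pass (adjusted p = 0.058, 0.0434 with the replicate number as a block). It was called higher after centring (1.07, adjusted p = 0.00279), with the 2 groups alone (0.0246) and without MMS D14 replicate 2 (0.0152).

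Proteases and protease inhibitors of the matrix rose in 14 of 19 measured cases (median 1.62), 4 fell and 1 was not called. Mmp2, the gelatinase A gene, was 126, 127 and 99.4 FPKM in Control and 877, 978 and 965 FPKM in MMS D14. Mmp14, its membrane-bound activator, was 53.8, 58.2 and 50.8 FPKM and 248, 339 and 356 FPKM (2.5 ± 0.21, adjusted p = 1.92e-08). On the log2 scale Mmp2 changed by 3, and neither gene had overlapping groups. Mmp3, for stromelysin, rose from 8.8, 5.99 and 4.96 FPKM to 51.6, 47 and 59.2 FPKM, and Plat, for tissue plasminogen activator, from 4.4, 4.39 and 4.54 FPKM to 35.3, 31.5 and 39.2 FPKM. The metalloproteinase inhibitors did not move together. Timp3 fell from 81, 78.8 and 117 FPKM to 33.3, 39.5 and 36.2 FPKM (-1.3) and Timp4 from 68.6, 72.6 and 39.3 FPKM to 14.6, 14.4 and 16.9 FPKM (-1.86). Timp1, named after its values were seen, rose from 71.3, 93.3 and 52.8 FPKM to 931, 437 and 368 FPKM (2.89, adjusted p = 2.22e-06), and MMS D14 replicate 1 was more than 2-fold above the other 2. The aggrecanase gene Adamts5 fell from 14.2, 16.1 and 26.8 FPKM to 8, 9.19 and 13.6 FPKM and the metalloproteinase gene Adam33 from 19.9, 20.6 and 22.3 FPKM to 7.99, 11.4 and 11.1 FPKM. Centred, the change of Adamts5 was -0.29 (adjusted p = 0.259) and that of Adam33 was -0.47 (0.0315).

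Genes that mark tendon and ligament cells rose in 10 of 11 measured cases, and 1 fell (median 2.36). Scx, which encodes the tendon transcription factor scleraxis, was 1.01, 1.61 and 1 FPKM in Control, at the floor of the table, and 24.6, 25.5 and 18.8 FPKM in MMS D14 (3.44 ± 0.25, adjusted p = 7.14e-09). Thbs4, a thrombospondin of tendon matrix, was 12.6, 15.8 and 19.4 FPKM and 387, 376 and 322 FPKM (4.44 ± 0.24). Cilp, an intermediate-layer protein of cartilage and tendon, was 32.8, 26.6 and 21.8 FPKM and 212, 187 and 228 FPKM. Ccdc3, which is also secreted by fat and endothelium, was the member that fell, by 1.68 on the log2 scale. Of 7 measured chondrocyte genes 5 rose, among them Comp, from 171, 175 and 156 FPKM to 492, 564 and 558 FPKM, and Sox6 (-0.96) and Cytl1 (-0.97) fell, Cytl1 not after centring (adjusted p = 0.0571). Of 6 measured osteoblast genes 3 rose, 2 fell and 1 was not called. Ibsp, for bone sialoprotein, went from 1.53, 1.24 and 1.12 FPKM to 23.9, 28.6 and 40.8 FPKM (3.77 ± 0.42), and Cdh11, the cadherin of synovial fibroblasts and osteoblasts, rose by 2.93. The mineralising phosphatase gene Alpl fell by 0.96, and the osteocalcin gene Bglap was 15.6, 15.9 and 15.8 FPKM and 7.72, 16 and 7.24 FPKM without a call (adjusted p = 0.0731, 0.0464 with the replicate number as a block and 0.0119 without MMS D14 replicate 2). Its near copy Bglap2 was called lower (adjusted p = 0.0131), but not without MMS D14 replicate 3 (0.0566) or after centring (0.303). Many of these genes stand in the matrix lists too, so the counts overlap.

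Wnt pathway genes rose in 8 of 12 measured cases, 3 fell and 1 was not called (median 1.34). Dkk3, a secreted dickkopf family member, was 8.45, 6.82 and 7.64 FPKM in Control and 80.9, 101 and 111 FPKM in MMS D14 (3.51 ± 0.22). Ror2, a receptor for Wnt5a, rose from 2.05, 1.94 and 1.3 FPKM to 7.23, 8.01 and 5.9 FPKM, and Nkd2, an intracellular inhibitor of the pathway, from 2.49, 2.4 and 1.4 FPKM to 9.1, 11.6 and 10.7 FPKM. Apcdd1, a membrane inhibitor, fell from 40.2, 35.5 and 47 FPKM to 11.3, 10.9 and 14.4 FPKM, and the receptor gene Fzd4 (-1.22) and the secreted antagonist gene Sfrp5 (-1.16) fell as well. Inhibitors of the pathway thus stood on both sides. Sfrp4, another secreted antagonist, overlapped, at 71.8, 69 and 47.7 FPKM and 47.1, 55.9 and 54.7 FPKM (adjusted p = 0.4).

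In the TGF-beta and BMP family 5 of 9 measured genes rose, 3 fell and 1 was not called (median 1.22). Ltbp1, which stores latent TGF-beta in the matrix, rose from 16.1, 16.6 and 16.6 FPKM to 43.5, 38.7 and 36.8 FPKM. Fstl1, a secreted follistatin-like protein, rose by 1.6 and the sulfatase gene Sulf1 by 1.46. Acvr1c, a receptor of this family that is abundant in fat, fell from 15.6, 15.4 and 16.1 FPKM to 1.47, 1.99 and 3.42 FPKM (-2.38 ± 0.2). The activin subunit gene Inhbb fell by 1.36 and Fst, for the activin antagonist follistatin, by 1.75. Gdf10 was 42.4, 33.4 and 17.8 FPKM and 13.7, 29 and 9.5 FPKM, with overlapping groups (adjusted p = 0.0715, 0.00619 with the replicate number as a block), and it was called lower without MMS D14 replicate 2 (0.0132) or Control replicate 3 (0.0235).

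All 23 measured genes of mitosis and cytokinesis, of 88 looked for, rose (median 2.32). So did all 11 of DNA replication, of 46 looked for (median 1.34). For both lists, the direction of the genes absent from this table of selected genes is not known. Tk1, thymidine kinase, which feeds DNA synthesis, was 1.95, 2.08 and 1.48 FPKM in Control and 33.2, 23.2 and 25.4 FPKM in MMS D14 (3.31 ± 0.34, adjusted p = 1.33e-07). Rrm2, the regulated subunit of ribonucleotide reductase, was 1.46, 1.87 and 1.5 FPKM and 17.4, 12.4 and 11.9 FPKM. For both, the lowest MMS D14 sample was more than 6-fold above the highest Control sample. Anln, for the cytokinetic ring protein anillin, went from 2.45, 1.84 and 3.08 FPKM to 18, 14.8 and 10.9 FPKM, and Cenpa, for the histone variant of centromeres, from 2.59, 2.33 and 3.2 FPKM to 17.3, 14.6 and 16.4 FPKM. Kif22, a chromosome-binding kinesin, rose by 2.47, and the spindle gene Tacc3 by 2.32. Control levels of the named genes were near 1 to 3 FPKM, where adding 1 before taking logs understates a fold. In the R1 and R2 groups Anln averaged 2.36 and 1.84 FPKM. The replication-dependent histone gene Hist1h2ap was 10.6, 16.1 and 6.7 FPKM and 269, 119.8 and 61.3 FPKM (3.46, adjusted p = 0.000288), and it has near-identical copies whose reads the counting could split.

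The promoters of the mitosis genes are shown because this list moved together and because many late cell-cycle genes are known to share a CCAAT box, bound by NF-Y, and a cell cycle homology region, the element read by the DREAM and MuvB complexes. The windows come from RefSeq on GRCm38.p6, each with 250 bases before the start of the gene and 50 after it, and 873 of the 1178 genes had at least 1 window. Both strands were searched for CCAAT, for TTTGAA as the cell cycle homology region and for GCGGGAA as the E2F core, and a CCAAT box can share letters with an E2F core or with a CCAAT box on the other strand. Anln, Kif22, Cenpa and Cks2 are the called genes of the list with the smallest adjusted p that hold a motif; Ccnb2, for a mitotic cyclin, and Cdca3, a cell-division gene, were added after the matches were seen. Sequences run 5′ to 3′ on the strand of the gene, and capitals mark CCAAT and TTTGAA or their reverse complements ATTGG and TTCAAA.
Anln, chr9:22389157-22389456, minus strand: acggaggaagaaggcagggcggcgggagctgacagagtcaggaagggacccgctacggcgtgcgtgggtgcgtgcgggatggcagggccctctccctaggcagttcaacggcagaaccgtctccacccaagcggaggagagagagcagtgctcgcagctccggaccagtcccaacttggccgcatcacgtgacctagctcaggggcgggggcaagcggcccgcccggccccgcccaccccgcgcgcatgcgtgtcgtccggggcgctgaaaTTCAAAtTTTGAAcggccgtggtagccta
Kif22, chr7:127042371-127042670, minus strand: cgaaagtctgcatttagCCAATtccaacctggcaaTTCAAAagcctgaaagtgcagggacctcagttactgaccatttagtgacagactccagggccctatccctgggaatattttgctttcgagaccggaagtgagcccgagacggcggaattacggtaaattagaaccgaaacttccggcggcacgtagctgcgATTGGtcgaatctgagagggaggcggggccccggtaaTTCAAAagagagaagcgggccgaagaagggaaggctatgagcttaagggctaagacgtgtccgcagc
Cenpa, chr5:30666636-30666935, plus strand: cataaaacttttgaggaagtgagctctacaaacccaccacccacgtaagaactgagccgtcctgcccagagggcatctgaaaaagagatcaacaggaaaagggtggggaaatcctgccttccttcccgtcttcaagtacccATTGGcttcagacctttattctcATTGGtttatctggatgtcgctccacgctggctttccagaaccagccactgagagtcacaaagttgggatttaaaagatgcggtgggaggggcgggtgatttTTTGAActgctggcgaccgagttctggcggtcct
Cks2, chr13:51644982-51645281, plus strand: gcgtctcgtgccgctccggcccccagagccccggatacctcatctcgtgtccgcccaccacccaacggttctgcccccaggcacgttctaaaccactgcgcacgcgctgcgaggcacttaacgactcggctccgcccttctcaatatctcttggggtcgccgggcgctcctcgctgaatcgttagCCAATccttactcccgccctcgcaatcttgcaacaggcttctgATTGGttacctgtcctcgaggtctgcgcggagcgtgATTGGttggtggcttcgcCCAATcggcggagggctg
Ccnb2, chr9:70421505-70421804, minus strand: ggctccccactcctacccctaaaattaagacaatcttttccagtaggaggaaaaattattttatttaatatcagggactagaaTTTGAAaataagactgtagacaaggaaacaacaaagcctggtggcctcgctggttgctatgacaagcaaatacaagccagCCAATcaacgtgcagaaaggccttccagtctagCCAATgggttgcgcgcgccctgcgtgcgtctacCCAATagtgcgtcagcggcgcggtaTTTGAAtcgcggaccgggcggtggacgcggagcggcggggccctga
Cdca3, chr6:124829926-124830225, plus strand: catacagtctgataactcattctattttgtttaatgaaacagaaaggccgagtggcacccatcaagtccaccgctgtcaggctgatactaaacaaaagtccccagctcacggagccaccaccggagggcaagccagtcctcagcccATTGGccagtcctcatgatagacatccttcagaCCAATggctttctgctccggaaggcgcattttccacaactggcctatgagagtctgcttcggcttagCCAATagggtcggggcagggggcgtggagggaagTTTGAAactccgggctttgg

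CCAAT and TTTGAA stood together in the window of 13 of the 20 mitosis genes that have one (65.0%), against 10.3% of the genes called higher and 5.89% of those called lower. Over all 27025 genes with a window the share was 7.97%. The genes called higher include the mitosis genes, which are 13 of the 24 genes called higher that hold both motifs. CCAAT, with or without the other, was in the windows of 14 of the 20 mitosis genes (70.0%; 41.1% of all genes), and TTTGAA likewise in 14 (70.0%; 20.2% of all genes). In Ccnb2 the 3 CCAAT boxes began 87, 54 and 21 bases before the start, spaced by 33 bases, and a TTTGAA followed at 4 bases after it. Of the printed genes, Anln held TTTGAA without CCAAT and Cks2 CCAAT without TTTGAA. The E2F core was in 1 of 20 mitosis genes (5.0%) and in 3 of 10 genes of DNA replication (30.0%), against 5.29% of all genes. For the 29 adipocyte genes with a window, which fell, the share with both motifs was 10.3%. A direct repeat of AGGTCA with 1 base between, the type of site that PPAR-gamma binds with RXR, was in no window of a gene in the table and in 13 of all 32851 windows. A match is a description of these letters and no evidence of binding.

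**Figure D2:**
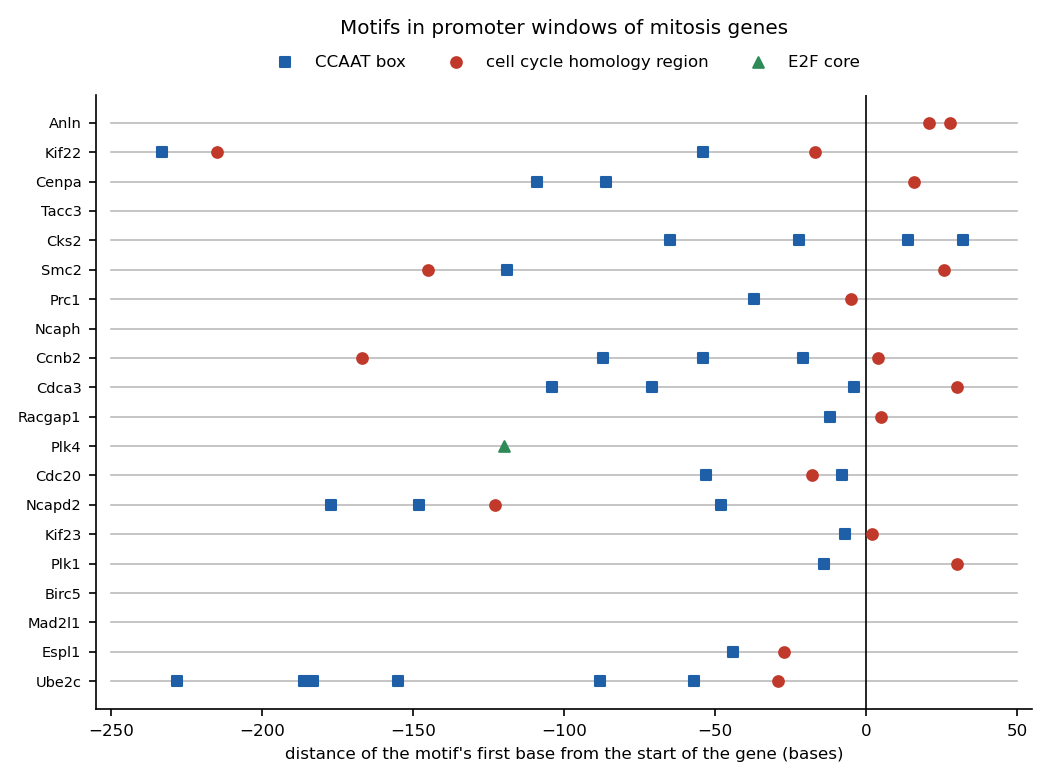
Positions of the motifs in the promoter windows of the mitosis and cytokinesis genes, in bases from the start of the gene (0), 1 row per gene and 1 window per gene; squares mark the CCAAT box, circles the cell cycle homology region and triangles the E2F core, on either strand. In Ccnb2 the 3 squares lie at -87, -54 and -21; a row without a symbol holds none of the motifs.

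Contractile and cytoskeletal genes rose in 14 of 15 measured cases (median 1.53). Actn1, for the actin cross-linker alpha-actinin, was 18.6, 21.6 and 21.3 FPKM in Control and 96.3, 77.3 and 67.9 FPKM in MMS D14. Itgbl1, an integrin beta-like secreted protein, went from 8.08, 7.33 and 12 FPKM to 37.9, 52.7 and 62.4 FPKM (2.36 ± 0.23, adjusted p = 6.83e-08). Cnn3, for a calponin, rose by 1.39 and Synpo, for synaptopodin, by 1.54. Lmod1, a leiomodin of smooth muscle, was the exception, from 7.91, 9.04 and 9.75 FPKM to 4.94, 4.13 and 4.93 FPKM, a fall that did not pass after centring (adjusted p = 0.0978).

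**Figure D3:**
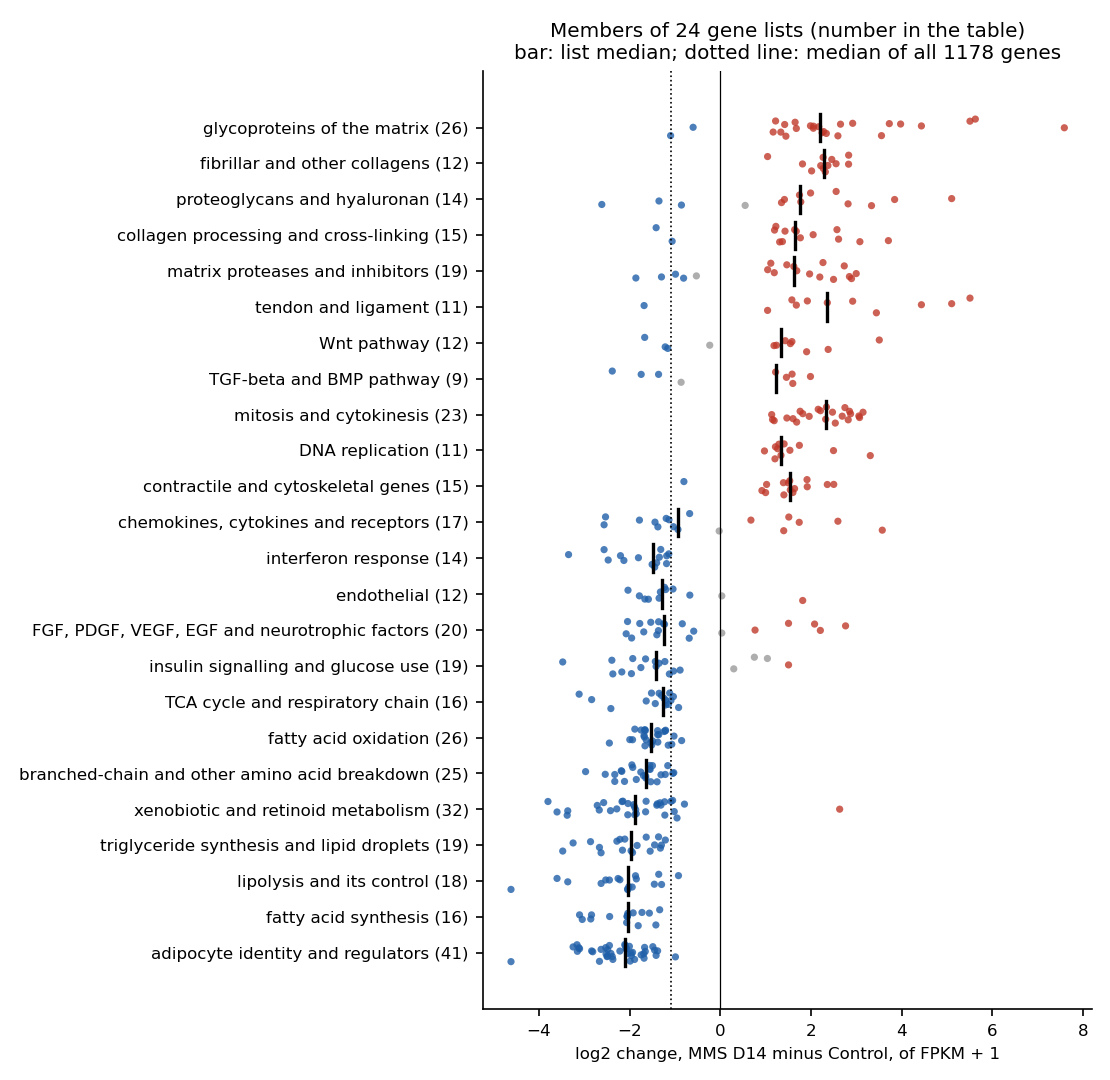
The log2 change of each member of 24 gene lists, MMS D14 minus Control, with n = 3 samples in each group; red and blue points were called higher and lower and grey points were not called, bars are list medians and the dotted line is the median of all 1178 genes, -1.08. Every point of the collagen, mitosis and DNA replication lists lies to the right of zero and every point of the adipocyte and fatty acid lists to the left.

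Every one of the 41 measured adipocyte genes, of 54 looked for, fell (median -2.11). Fewer fat cells and less RNA per fat cell cannot be told apart in bulk tissue. The falls of these genes were unequal, and that of Adrb3, 4.62 on the log2 scale, was the largest. Adrb3, the receptor through which noradrenaline starts lipolysis in fat cells, was 89.9, 79.4 and 66.8 FPKM in Control and 1.75, 4.63 and 1.16 FPKM in MMS D14. Cidea, a lipid droplet gene of thermogenic fat, fell from 49.9, 37.1 and 19.3 FPKM to 1.84, 2.22 and 4.01 FPKM, and Arxes2, an adipocyte gene controlled by PPAR-gamma, from 99.2, 86.8 and 92.7 FPKM to 7.16, 9.26 and 12.9 FPKM (-3.15 ± 0.25, adjusted p = 1.36e-08). Its close copy Arxes1 fell by 2.82, and reads shared between the copies are uncertain. Pparg itself, the master regulator of fat cells and named after its values were seen, fell less, from 122, 102 and 142 FPKM to 25.3, 28.2 and 36.5 FPKM (-1.99). Aqp7, the glycerol channel of fat cells, was 50.5, 49 and 63.4 FPKM and 6.67, 7.09 and 10.2 FPKM. Nnat, an imprinted membrane protein gene, was 279, 378 and 709 FPKM and 43.8, 33.1 and 67.8 FPKM, and Control replicate 3 was its highest sample. Against the same Control samples the list's median change was, in the other groups, -0.53 in MMS D3, -1.21 in MMS D7, -1.03 in R1 and -1.03 in R2.

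Every measured gene for making, storing and releasing fat fell, where 69.3% of the whole table was called lower. All 16 measured genes of fatty acid synthesis fell (median -2.05). So did all 19 of triglyceride synthesis and lipid droplets (median -1.97) and all 18 of lipolysis (median -2.04). These lists have 38, 39 and 27 genes, and the direction of those absent from this table of selected genes is not known. Acss2, which makes acetyl-CoA from acetate, fell from 115, 79.7 and 56.7 FPKM to 5.69, 10.3 and 11.6 FPKM, and Acacb, the mitochondrial acetyl-CoA carboxylase, from 40.2, 28.4 and 20.9 FPKM to 2.32, 3.42 and 3.9 FPKM (-2.84 ± 0.31). For both, Control replicate 1 was about 2-fold above Control replicate 3, and every MMS D14 sample was below the lowest Control sample. Mlxipl, for the carbohydrate-responsive factor ChREBP, fell from 39.6, 37.5 and 35.7 FPKM to 9.13, 9.95 and 11 FPKM. Dgat2, the enzyme of the last step of triglyceride synthesis, fell from 646, 510.1 and 473 FPKM to 53.8, 72.5 and 100 FPKM (-2.86 ± 0.21, adjusted p = 7.5e-09). Abhd15, a fat-cell protein that holds phosphodiesterase 3B and restrains lipolysis, fell by 1.87. Cyp2e1, a cytochrome P450 abundant in fat, fell from 1548, 1238 and 1235 FPKM to 78.1, 91.9 and 118 FPKM. Among the 15 largest falls were also those of the carboxylesterase gene Ces1d, whose product cleaves stored triglyceride, from 537, 450.3 and 453 FPKM to 21, 38.6 and 69.4 FPKM, and of its neighbour in the same gene cluster Ces1f, by 3.37. For Ces1d the MMS D14 samples were well apart from each other, replicate 3 being the highest, and near copies in this family could share reads.

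Mitochondrial and amino acid genes fell by less than the fat storage genes at the median. All 26 measured genes of fatty acid oxidation, of 53 looked for, fell (median -1.52). Eci1, an isomerase of unsaturated fatty acids, fell by 1.94 and Pxmp2, a peroxisomal membrane protein gene, by 2.45. All 16 measured genes of the TCA cycle and respiratory chain, of 91 looked for, fell (median -1.27). Pcx, pyruvate carboxylase, went from 322, 236 and 191 FPKM to 26, 33.4 and 42 FPKM (-2.84 ± 0.24), and Aco1, the cytosolic aconitase, from 61.5, 53.4 and 55.6 FPKM to 17.4, 21.6 and 22.3 FPKM. All 25 measured genes of amino acid breakdown, of 48 looked for, fell (median -1.65). Mccc1, an enzyme of leucine breakdown, fell from 46.7, 39.6 and 46.1 FPKM to 7.34, 9.31 and 10.2 FPKM, and Pcca, of propionyl-CoA carboxylation, from 35.3, 28.7 and 36.1 FPKM to 7.58, 10.1 and 9.94 FPKM. Slc7a10, a carrier of neutral amino acids found on fat cells, fell from 151, 135 and 160.1 FPKM to 13.2, 17.7 and 25.1 FPKM (-2.97, adjusted p = 5.24e-09). Slc1a4, another carrier of neutral amino acids, went the other way, from 6.31, 5.85 and 4.15 FPKM to 31.8, 30.1 and 31.8 FPKM (2.34, adjusted p = 1.28e-08).

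Insulin and glucose genes fell in 15 of 19 measured cases, 1 rose and 3 were not called (median -1.42). Slc2a4, the insulin-responsive glucose carrier GLUT4, fell from 106, 93.8 and 94.2 FPKM to 11.9, 18.9 and 26.1 FPKM (-2.37 ± 0.21). Gys1, glycogen synthase, fell from 65.6, 57 and 51.5 FPKM to 14, 16.1 and 19.6 FPKM. Grb10, an adaptor that inhibits the insulin receptor, rose from 15.9, 13.8 and 13.4 FPKM to 40.3, 46.8 and 40.7 FPKM (1.5, adjusted p = 5.3e-08). The 3 without a call, Pfkm, Eno3 and Pygm, are abundant in skeletal muscle and were highest in MMS D14 replicate 3. The changes of Eno3 and Pfkm were below zero without that library, and that of Pygm without the 5 libraries that stand apart. Other settings called both Eno3 and Pfkm higher: after centring the adjusted p was 0.0225 for Eno3 and 0.0161 for Pfkm, and without MMS D14 replicate 1 it was 0.028 and 0.0369. Eno3 was also called higher without Control replicate 2 (0.0392). Pygm, muscle glycogen phosphorylase, was 5.66, 24.7 and 4.1 FPKM in Control and 8.2, 12 and 62.1 FPKM in MMS D14, and the muscle gene Myl1 was 32.4, 117 and 32.9 FPKM and 27.5, 37 and 136 FPKM, both with Control replicate 2 as the highest Control sample. Pygm was called higher without Control replicate 2 (adjusted p = 0.00571), without MMS D14 replicate 1 (0.0192) and after centring (0.0203), against 0.0964 with all samples. The part of muscle tissue in these values was not tested.

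Of 32 measured genes of xenobiotic and retinoid metabolism 31 fell and 1 rose (median -1.88). Ephx2, the soluble epoxide hydrolase, fell from 183, 153 and 169 FPKM to 21.1, 23.3 and 30.6 FPKM (-2.72 ± 0.18, adjusted p = 4.1e-09). Gstz1, a glutathione transferase, fell from 437, 366 and 347 FPKM to 56, 75.2 and 82.3 FPKM, and Pon1, a paraoxonase, from 50.1, 45.7 and 43 FPKM to 1.98, 2.7 and 3.17 FPKM. Crabp2, which carries retinoic acid to its receptor in the nucleus, rose from 7.18, 3.88 and 4.72 FPKM to 38.1, 51.1 and 25.7 FPKM (2.63, adjusted p = 7.93e-07). Its means were 5 FPKM in MMS D3, 28 in MMS D7, 6.6 in R1 and 4.84 in R2, so it was high in the MMS D7 and MMS D14 means and near Control in the others. In the antioxidant list 4 of 6 measured genes fell, Cat, for catalase, by 2.07 on the log2 scale. Hmox1, which breaks down heme, rose from 28.7, 31.6 and 24.7 FPKM to 186, 111 and 179.9 FPKM (2.42, adjusted p = 1.12e-05). Fos was 19.2, 49 and 27.5 FPKM and 47, 103 and 101 FPKM with overlapping groups. The call for Fos had an adjusted p of 0.0258, within 0.00601 to 0.106 over all alternatives tried, and was lost without Control replicate 1 (0.106) or 3 (0.0589) and without MMS D14 replicate 2 (0.0827) or 3 (0.0788).

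Growth factor and receptor genes of the FGF, PDGF, VEGF, EGF and neurotrophin families fell in 14 of 20 measured cases and rose in 5 (median -1.24), shares near the 69.3% and 27.7% of the whole table. Vegfa, the main growth factor of blood vessels, fell from 94.3, 90 and 108 FPKM to 23.4, 31.1 and 35.1 FPKM, and Vegfb from 119, 109 and 89.1 FPKM to 23.9, 24.1 and 26 FPKM (-2.05 ± 0.21). Ntrk2, the receptor of brain-derived neurotrophic factor, fell from 44.9, 44.5 and 44.6 FPKM to 10.4, 12.7 and 14.1 FPKM. Pdgfrl, Mdk, Ptn and Angptl1 were among the rises. Mdk, for the heparin-binding factor midkine, was 2.68, 3.77 and 3.66 FPKM in Control and 22.3, 30 and 34.4 FPKM in MMS D14, and its relative Ptn, for pleiotrophin, was 3.8, 5.11 and 6.43 FPKM and 11.4, 19.4 and 18.6 FPKM.

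Endothelial genes fell in 10 of 12 measured cases (median -1.28), which is close to the median of the whole table. Cd300lg, a capillary surface receptor, fell from 71.3, 71.9 and 77.8 FPKM to 19.1, 23.2 and 19.8 FPKM and Kdr, the main VEGF receptor, from 22.2, 23.4 and 26 FPKM to 8.12, 9.68 and 11.1 FPKM. Apln, for the peptide apelin that is made by sprouting endothelium, rose from 3.67, 2.78 and 1.57 FPKM to 17.1, 9.3 and 9.63 FPKM (1.82 ± 0.41, adjusted p = 0.000488). Flt4, the receptor of lymphatic endothelium, was 2.46, 2.82 and 2.36 FPKM and 2.83, 2.52 and 2.52 FPKM, with no call, though after centring it was called higher (0.55, adjusted p = 0.0063). Of 5 measured nerve and Schwann cell genes 4 fell, 2 after centring, among them Mbp, for myelin basic protein, from 28.5, 36.8 and 25.1 FPKM to 11.8, 11.7 and 10.1 FPKM. Ncam1, an adhesion molecule of nerve and mesenchyme, rose from 1.62, 1.45 and 1.58 FPKM to 5.33, 5.45 and 4.17 FPKM. The summed level of the 5 nerve genes was 62.3 to 93.4 FPKM in Control and 28.8 to 34.5 FPKM in MMS D14. The part of lost cells in these values was not tested.

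Of 7 measured macrophage and monocyte genes 5 fell, 1 rose and 1 was not called (median -1.21), a share of falls near the 69.3% of the whole table; the list has 47 genes. Retnla, a secreted protein made in fat and by macrophages exposed to interleukin-4, was 237, 191 and 150.1 FPKM in Control and 1.37, 3.96 and 3.79 FPKM in MMS D14, -5.63 ± 0.83 on the log2 scale. Timd4, a receptor of long-lived resident macrophages, fell from 10.5, 11.8 and 11.2 FPKM to 2.59, 3.23 and 1.42 FPKM, and Lyve1, found on resident macrophages and lymphatics, from 110.2, 117 and 103 FPKM to 42.7, 34.8 and 31.2 FPKM. Ms4a7, a macrophage membrane protein gene, rose from 7.19, 8.5 and 8.98 FPKM to 26.8, 29.5 and 20.6 FPKM (1.52, adjusted p = 1.09e-06). Gpnmb overlapped, at 23.8, 23.5 and 21.3 FPKM and 16.7, 24.1 and 23.1 FPKM. Of 5 measured genes of class II presentation 1 was called, H2-Eb1, lower by 0.53 (adjusted p = 0.0213). For H2-Aa and H2-Ab1 every MMS D14 sample was below every Control sample without a call, and Cd74, at 692, 633 and 416 FPKM and 435, 412 and 292 FPKM, and H2-DMa overlapped. This list depended on the scaling and the fit. With the replicate number as a block, and without the 5 libraries that stand apart, all 5 genes were called lower; under the block Cd74 had an adjusted p of 0.00555 against 0.12 without it. After centring 0 were called, 0 of them at an unadjusted p under 0.05, and the changes of H2-Aa (0.04) and H2-DMa (0.09) were then above zero. The call for H2-Eb1 ended without MMS D14 replicate 3 (adjusted p = 0.0676) and without Control replicate 1 (0.0667), and its adjusted p ran from 0.00288 to 0.969 over its alternatives.

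Chemokine and cytokine genes went both ways, with 6 of 17 measured genes higher and 10 lower (median -0.94). The whole table was mixed as well, with 27.7% higher, 69.3% lower and a median of -1.08. Ccl8, a chemokine that draws monocytes, rose from 6.69, 8.88 and 4.59 FPKM to 81.7, 105 and 80.8 FPKM (3.57 ± 0.33, adjusted p = 5.27e-08), and Il33, an alarmin of stromal cells, from 5.87, 5.86 and 4.11 FPKM to 15.6, 15.2 and 15.4 FPKM. Il1rl1, which encodes the receptor of IL-33, was 1.39, 1.6 and 2.64 FPKM in Control and 14.7, 10.3 and 3.74 FPKM in MMS D14 (1.74, adjusted p = 0.0011), with the 3 MMS D14 samples far from each other. Tnfrsf12a, the receptor of the cytokine TWEAK, rose by 1.51. Cxcl9, a chemokine induced by interferon gamma, fell from 12.7, 18.7 and 12 FPKM to 1.05, 2.29 and 1.51 FPKM, and Il1r2, the decoy receptor of interleukin-1, from 9.4, 8.71 and 6.76 FPKM to 1.85, 1.18 and 2.08 FPKM. Cxcl13 was called higher with overlapping groups, 13.5, 8.04 and 3.82 FPKM and 11.6, 15.2 and 11.6 FPKM, a call that ended without Control replicate 3 (adjusted p = 0.292) and without MMS D14 replicate 2 (0.111), with 0.033 in the full fit and 0.000972 to 0.292 over its alternatives. Of 7 measured complement and acute-phase genes 6 fell. C1qtnf6, a collagenous relative of C1q, was the exception and rose from 23.2, 22.2 and 17 FPKM to 144, 146 and 159 FPKM (2.8 ± 0.2), while Orm1, for orosomucoid, fell from 191, 142 and 114 FPKM to 8.98, 13.6 and 19.2 FPKM.

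All 14 measured interferon response genes, of 47 looked for, fell (median -1.48). Ifi27l2a, a small gene strongly induced by interferon, was 3416, 3241 and 2456 FPKM in Control and 269, 319.7 and 297 FPKM in MMS D14 (-3.35 ± 0.23, adjusted p = 5.18e-09). Psmb9, a subunit of the immunoproteasome, fell from 39.1, 57.8 and 38.9 FPKM to 10.4, 13.3 and 12.5 FPKM, and H2-K1, a class I molecule with close copies, from 716, 704 and 739 FPKM to 259, 298 and 293 FPKM. Another class I gene with close copies, H2-Q10, fell by 3.29. Control replicate 2 stood above the other 2 Control samples in the GTPase genes induced by interferon gamma: Iigp1, named for that reason after its values were seen, was 15.2, 109 and 19.8 FPKM in Control and 5.06, 7.07 and 6.76 FPKM in MMS D14. Its change was -2.2 with all samples and -1.34 without Control replicate 2 (adjusted p = 1.9e-05). All 14 genes remained called lower without that library.

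Genes of the lining layer fell in 5 of 6 measured cases (median -1.35), and the list has 21 genes. Over all 1178 genes 69.3% were called lower and the median was -1.08, so this count alone does not set the lining list apart. Clic5, a chloride channel gene of lining fibroblasts, was 132, 135 and 102 FPKM in Control and 38, 44.9 and 48 FPKM in MMS D14 (-1.47 ± 0.2). Its means were 20.7 FPKM in MMS D3, 51 in MMS D7, 139.6 in R1 and 109 in R2, so MMS D14 was not the group with the lowest mean. Tspan15, a tetraspanin, went from 99.4, 118 and 101 FPKM to 37.7, 40.5 and 39.3 FPKM, and Tmem45b, a membrane protein gene, from 396, 351 and 386 FPKM to 19.1, 32.8 and 48.1 FPKM. Htra4, a serine protease gene, overlapped, at 215, 246 and 401 FPKM and 136, 238 and 216 FPKM (adjusted p = 0.221). The sublining and progenitor fibroblast genes went both ways, 6 of 10 up and 3 down. Prrx2, a homeobox gene of mesenchymal progenitors, rose from 15.1, 13.3 and 6.95 FPKM to 51.5, 67.9 and 48.5 FPKM, while Gsn, for the actin-severing protein gelsolin, fell from 5334, 5071 and 4614 FPKM to 655, 817 and 864 FPKM and Myoc, for myocilin, from 104, 88.3 and 75.4 FPKM to 6.13, 10.2 and 17.2 FPKM (-2.98 ± 0.35).

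Of 10 measured clock genes 5 were called lower and 1 higher, and most of these calls turned on 1 library. Dbp, a clock output gene with a strong daily rhythm, was 18.4, 15.6 and 127 FPKM in Control and 16.6, 16.1 and 8.97 FPKM in MMS D14, so Control replicate 3 stood far above the other 5 samples. Tef was 30.1, 29.2 and 73.6 FPKM and 13.8, 16.1 and 16.5 FPKM, and Nr1d1, for the repressor REV-ERB alpha, 95.8, 98.8 and 163 FPKM and 74.8, 58.5 and 44.1 FPKM. Without Control replicate 3 the calls for Tef, Nr1d1, Per3 and Hlf ended, with adjusted p of 0.0841, 0.0969, 0.21 and 0.142. With all samples their adjusted p were 0.0122, 0.0198, 0.0345 and 0.0283. After centring, 1 of the 10 was called lower. Leaving out single MMS D14 samples also ended the calls for Per3 (replicate 1, 2 or 3), Hlf (1 or 2) and Nr1d1 (3). Over the alternatives the adjusted p ran over 0.000139 to 0.118 for Tef, 0.00535 to 0.25 for Nr1d1, 0.00237 to 0.226 for Per3 and 0.000142 to 0.225 for Hlf. Nfil3, which rose by 1.49, was still called without Control replicate 3. The hour at which tissue was taken is not given in the labels.

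Nt5dc2, a nucleotidase-like gene in none of the lists, was among the 15 largest rises, at 6.14, 6.22 and 4.27 FPKM in Control and 142, 149.8 and 116 FPKM in MMS D14 (4.39 ± 0.25), and its samples were already 113, 90.9 and 58.6 FPKM in MMS D3. The remaining lists have few genes in the table. Carriers of amino acids, ions and metals went both ways, 4 of 10 up and 6 down (median -1.41). Slc39a14, an importer of zinc and iron, rose from 5.55, 6.11 and 6.45 FPKM to 43.9, 37 and 61.7 FPKM (2.76 ± 0.29, adjusted p = 2.08e-07), and Slc7a5, a carrier of large neutral amino acids, from 2.6, 2.02 and 2.17 FPKM to 11.6, 9.9 and 8.5 FPKM. Slc1a5, a glutamine carrier, fell from 666, 637 and 693 FPKM to 149, 151 and 167 FPKM. Both osteoclast genes of the table were called, in opposite directions: Ctsk, for cathepsin K, rose from 64.1, 80.1 and 95.3 FPKM to 269.6, 309 and 362 FPKM, and Acp5, for the tartrate-resistant acid phosphatase, fell from 435, 379.9 and 294 FPKM to 109, 114 and 93.7 FPKM. In the IGF pathway Igfbp3, a carrier of insulin-like growth factors, rose by 0.84, while Ghr, the growth hormone receptor, fell by 1.38 and Igfals by 1.54. All 4 measured sterol and steroid genes, of 37 looked for, fell. Hsd11b1, which activates glucocorticoids, went from 45.4, 34.8 and 36.7 FPKM to 2.85, 5.91 and 10.4 FPKM. Of 3 neutrophil genes, Csf3r, the receptor of granulocyte colony-stimulating factor, rose by 1.29, and Il1r2 fell. Prtn3, for the granule protease proteinase 3, fell from 11.4, 14.3 and 14.6 FPKM to 5.89, 6 and 5.79 FPKM (-1.06, adjusted p = 0.000402), although it was 34.1, 38.7 and 26.4 FPKM in MMS D3, above every Control sample.

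Markers of blood, muscle and immune cells were thin in the table. All 5 measured erythroid genes, of 12 looked for, were called lower. Their summed level was 3497 to 4831 FPKM in Control and 962 to 2608 FPKM in MMS D14. Hbb-bs, for a beta-globin with close copies, was 1320.5, 1182 and 1093 FPKM in Control and 304, 813 and 808 FPKM in MMS D14, with replicate 1 the lowest of its group. None of the 5 calls held without that library (Hbb-bs adjusted p = 0.105, 0.0121 with all samples) or after centring (0.182), and in both fits 0 of the 5 had an unadjusted p under 0.05. Of the 40 skeletal muscle genes looked for 4 are in the table, 3 of them without a call, and their summed level was 209.8 to 374 FPKM in Control and 61.7 to 281 FPKM in MMS D14. Cox8b, a subunit of cytochrome oxidase made in muscle and in thermogenic fat, was the member called lower, from 253, 213 and 162 FPKM to 16.7, 25.1 and 28.6 FPKM. None of the 35 genes of T, NK and B cells and none of the 19 of keratinocytes and hair is in the table. The part of blood or muscle in the other results was not tested.

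**Figure D4:**
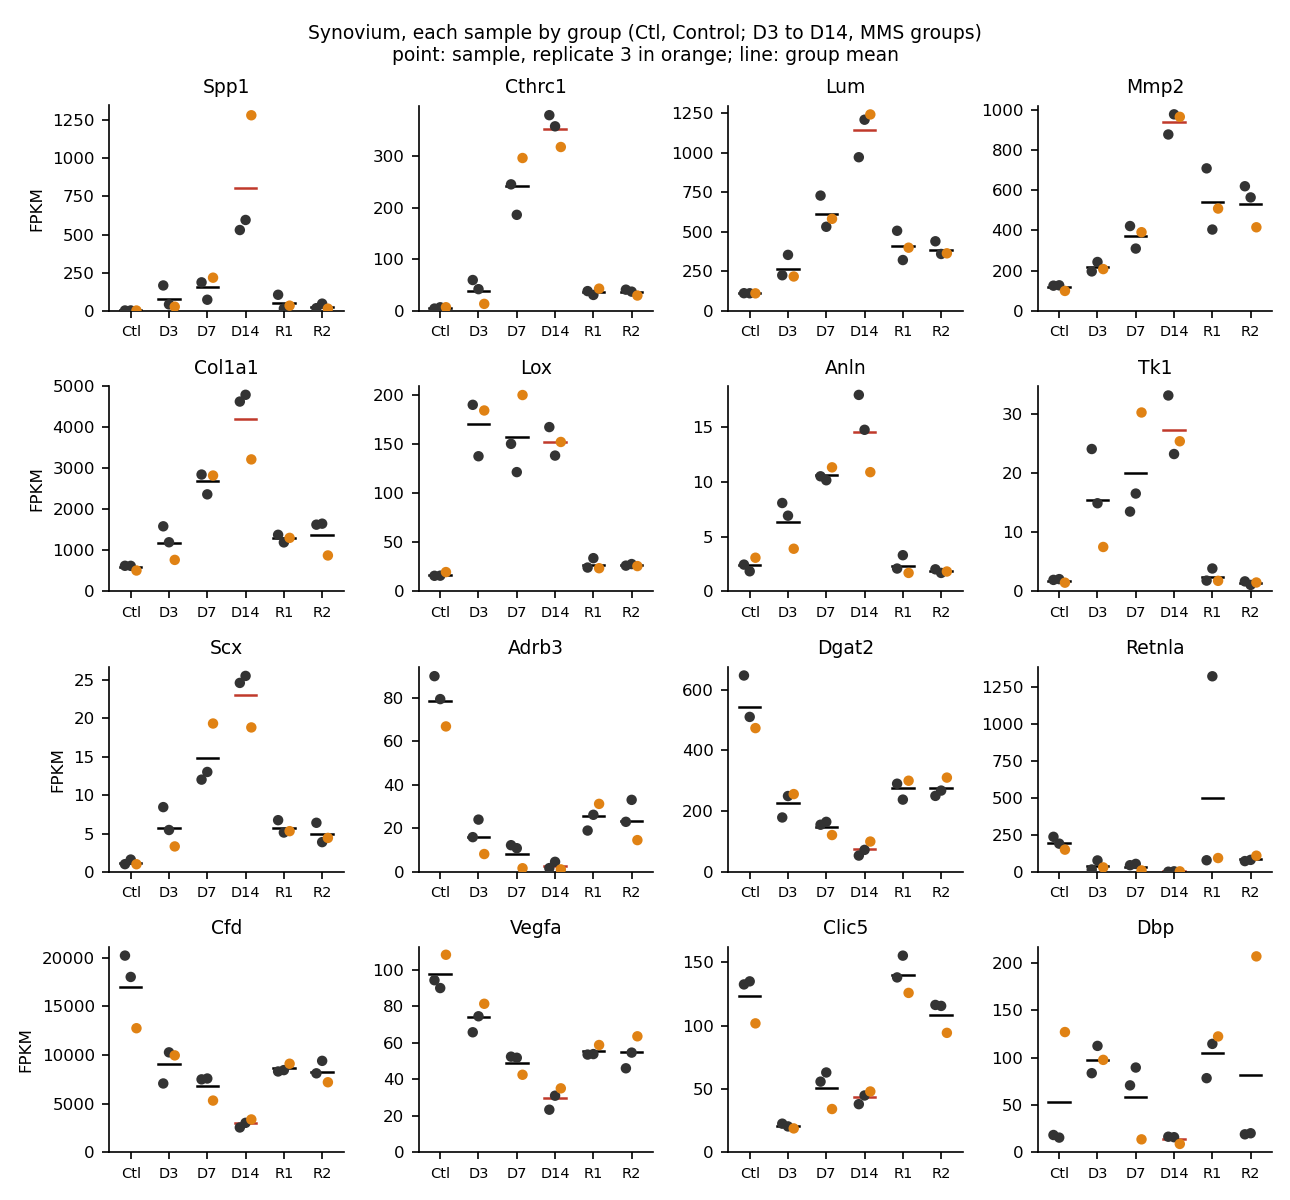
FPKM of 16 genes in each of the 18 synovium samples, by group, with every vertical axis starting at 0; points are samples, replicate 3 is orange and lines are group means (n = 3). Control replicate 3 stands apart in Dbp at 127 FPKM, and for Lum, Mmp2 and Tk1 all MMS D14 points lie above all Control points.

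Set against MMS D7, the MMS D14 synovium was further down in fat genes and further up in collagen and tendon genes. The test called 659 genes (55.9%), 148 higher (12.6%) and 511 lower (43.4%), and the median change over the table was -0.41. After centring, which added 0.24 to the changes, the counts were 203 higher and 204 lower. They were 239 and 694 without the 5 libraries that stand apart. The count of higher genes was 80 without MMS D7 replicate 2 and 95 without MMS D14 replicate 2, and that of lower genes was 278 without MMS D14 replicate 1, 314 without MMS D7 replicate 1 and 295 without MMS D7 replicate 2. Of the 326 genes higher than in Control 142 were higher again than in MMS D7 and 0 were lower, and of the 816 lower than in Control 510 were lower again and 0 were higher. These 2 comparisons share the MMS D14 samples, and the 0 counts are therefore not independent. Fibin, a secreted fin-bud initiation factor homologue, was 2.22, 1.64 and 2.27 FPKM in MMS D7 and 13.9, 23.5 and 27.8 FPKM in MMS D14 (2.85 ± 0.26, adjusted p = 4.99e-06), and 2, 1.54 and 1.57 FPKM in Control. Fmod was 78.2, 51.4 and 59.7 FPKM in MMS D7 and rose by 2.49 from there, and Thbs1, a thrombospondin, was 9.74, 6.78 and 17.9 FPKM and rose by 1.87. Retnla fell from 45.2, 54.2 and 9.87 FPKM, with MMS D7 samples far apart, by 2.98 (adjusted p = 0.00933). Ces1d was 132, 138 and 116 FPKM in MMS D7 and fell by 1.71. Pck1, for the carboxykinase of glycerol and glucose synthesis, fell from 240.3, 264 and 99.5 FPKM to 45.6, 50.5 and 61.8 FPKM. Of the adipocyte genes 38 of 41 were lower than in MMS D7 (median -1.01), of the collagens 9 of 12 were higher (median 0.62), and of the tendon genes 7 of 11 were higher and 1 was lower. Of the 23 mitosis genes 2 were called, both higher, and of the 11 replication genes 0, where 12.6% of the whole table was called higher. The medians of these lists were 0.3 and 0.34, above the -0.41 of the whole table. Pygm was among the 5 largest rises by the naming rule, from 3.61, 4.26 and 2.31 FPKM, with a change of 2.18. Without MMS D14 replicate 3, its highest sample, it was still called, with a change of 1.34 (adjusted p = 0.0274).

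In cartilage at the same D number, with n = 2 samples in each group, 240 of the synovium genes were also measured. Of all 1606 cartilage genes 859 (53.5%) were called in MMS D14 against Control, 410 higher (25.5%) and 449 lower (28%). The cartilage table gives a normalised signal of unstated unit and is itself a selection, so only directions are set side by side. Of the 88 shared genes that were higher in synovium, 36 were higher in cartilage, 15 were lower and 37 were not called. Of the 137 that were lower in synovium, 53 were lower in cartilage, 23 were higher and 61 were not called. Cthrc1 rose in both, with a cartilage signal of 8.22 and 9.76 in Control and 59.2 and 53.3 in MMS D14 (2.52), as did Col3a1 (3.20), Wisp2 (2.36), Postn (2.38), Mmp2 (1.89) and Lum (1.63). Ifi27l2a fell in both tissues (cartilage -1.97), and so did Rbp4, the plasma carrier of retinol, from 107 and 98.3 to 34.1 and 33.1 in cartilage (-1.58). Thbs4 rose in synovium and fell in cartilage, from 105 and 80.6 to 39.2 and 27.9 (-1.45 ± 0.28, adjusted p = 0.00128). Cilp did the same, from 1881 and 1393 to 421 and 343 in cartilage (-2.09, adjusted p = 7.87e-05), and Comp likewise (-1.09, adjusted p = 0.0034). Orm1 and Il1r2 were lower in synovium and higher in cartilage (0.79 and 0.91), but in cartilage the call for Orm1 ended without any 1 of the 4 samples and that for Il1r2 without Control replicate 1 or either MMS D14 sample. Among the shared genes 61 were called higher and 76 lower in cartilage; without cartilage Control replicate 1 the count higher was 39, and without cartilage MMS D14 replicate 2 the count lower was 49. The difference between the tissues was not tested, since the tables were normalised separately.

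**Figure D5:**
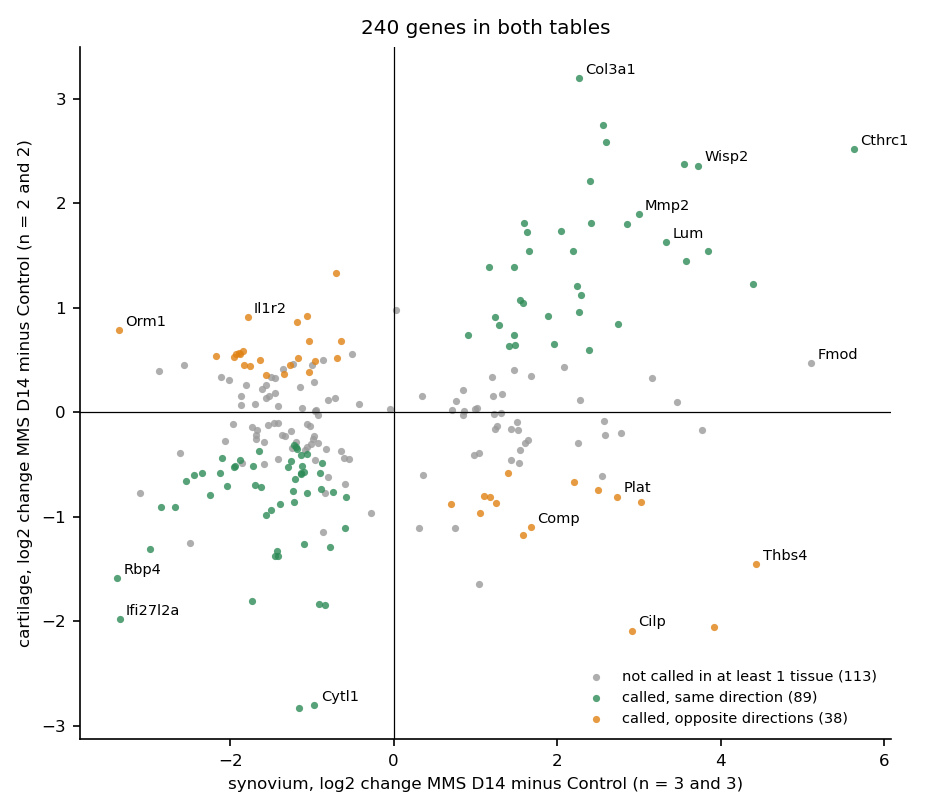
Log2 change, MMS D14 minus Control, of the 240 genes in both tables, in synovium (horizontal, n = 3 and 3) and cartilage (vertical, n = 2 and 2); green points were called in the same direction in both tissues and orange points in opposite directions. Thbs4, Cilp and Comp lie to the lower right and Cthrc1 and Col3a1 to the upper right.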

How the data were processed

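RNA-seq of mouse synovium (18 samples, 6 groups of 3) and cartilage (14 samples, 7 groups of 2) was analysed from the tables the authors deposited. Per the submitters' processing notes, HISAT2 was used with the mm10 build; counting tool, strand setting, annotation, filters and depth are not given in the sources used here. The synovium values are FPKM, per the file headers. The cartilage table holds what the authors deposited as a normalised signal, of unstated unit.

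For each tissue limma 3.58.1 in R 4.3.3, with a variance trend, was fitted to log2 of the value plus 1 over all samples with group as the factor, on genes of at least 1 in at least 3 samples (2 in cartilage). P-values were adjusted by Benjamini-Hochberg over all genes, with a threshold of 0.05. A fold on this scale understates changes of low genes. The fit was tested on simulated data in which most genes did not change. Most genes of this selected table did, so that test does not speak to the calls here. Tables and plots were made with Python 3.11.15, pandas 2.3.3, numpy 2.4.6 and matplotlib 3.10.9. Promoter windows came from RefSeq on GRCm38.p6. The members and gene lists were chosen with earlier results of these data known. From each list up to 4 members with the smallest adjusted p were named, with members that did not pass or moved against the list. Among genes of at least 10 FPKM in the higher group whose groups did not overlap, the 15 largest rises and the 15 largest falls were named, 5 each against MMS D7, and the 6 most abundant genes without a call.

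The labels give the replicates numbers but no shared animal or day. In MMS D14 and Control, deviations from the group means of same-numbered samples correlated by 0.115, 0.193 and 0.284 over genes. Different numbers ran from -0.264 to 0.182. MMS D14 replicate 1 correlated about as much with Control replicate 2 (0.12), and MMS D14 replicate 2 with Control replicate 1 (0.182). Only replicate 3 is set apart by these values, and in both groups it is among the 5 libraries that stand apart. A pairing is thus not settled. The main fit had group only, and the replicate number was fitted as a block as an alternative. Alternatives were pseudocounts of 0.1 and 5, no filter, a mean of at least 5 in a group, no trend, the 2 groups alone, the replicate block, centring each sample on its median, an absolute log2 change of at least 1, leaving out each sample and, added after seeing the data, leaving out or fitting a term for the 5 libraries that stand apart. Protein sequences were not used here, and some genes that the naming rule picks are not reported here.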

Additional observations from a re-analysis of the deposited data

Results flagged for a closer look

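At the same D number, 10 named genes were called in opposite directions in synovium and cartilage, with all samples of MMS D14 on opposite sides of Control in the 2 tissues. The difference itself was not tested, since the tables were normalised separately and the cartilage groups have n = 2. Of these genes 6 were higher in synovium and lower in cartilage. For Thbs4 the log2 change was 4.44 in synovium and -1.45 in cartilage, for Cilp 2.92 and -2.09, and for Comp 1.68 and -1.09. For Fibin it was 3.02 in synovium and -0.86 in cartilage, for Plat 2.73 and -0.80, and for Pdgfrl 2.21 and -0.67. The other 4 were lower in synovium and higher in cartilage: Orm1 with -3.36 and 0.79, Il1r2 with -1.79 and 0.91, Prtn3 with -1.06 and 0.92, and Gys1, glycogen synthase, with -1.75 and 0.44. In cartilage the calls for Fibin and Pdgfrl ended without Control replicate 1 or MMS D14 replicate 2, that for Gys1 without Control replicate 1 or 2 or MMS D14 replicate 2, and those for Orm1 and Il1r2 without 3 or more of the 4 samples, 1 at a time. Prtn3 also differed between D numbers in synovium: its change from the same Control samples was 1.23 in MMS D3, where all samples were above Control, and -1.06 in MMS D14, where all were below, and that difference was not tested.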

How the results depend on the processing

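Each of the 188 genes named in synovium was refitted under 16 alternatives, and 160 kept their direction and their side of the threshold under all that could be fitted. In MMS D14 against Control the whole-table counts of calls did not move by more than 1.5 times under any alternative tried. Higher genes ran from 317 to 329 and lower genes from 795 to 813 when 1 sample was left out. Counts within some lists moved more, as given above for the class II, erythroid and clock genes. With an absolute log2 change of at least 1 required the whole-table counts were 292 and 647, and after centring, which added 0.52 to every change at the median, 335 and 678. With the replicate number as a block the counts were 328 and 823. The block ended no call of a named gene in this comparison, and beyond those given beside their results it changed none.

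Counts against MMS D7 moved more: 32 higher and 86 lower with an absolute log2 change of at least 1, 204 lower after centring, 239 higher without the 5 libraries that stand apart, and 80 to 156 higher and 278 to 545 lower with 1 sample left out. With the replicate number as a block they were 177 and 599. In this comparison same-number deviations correlated by -0.004, 0.227 and 0.257, and different numbers ran from -0.406 to 0.473. A pairing is not settled here either. Cartilage counts among shared genes were 26 higher and 23 lower with that size required, and 39 to 52 and 49 to 67 with 1 sample left out.

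In MMS D14 against Control, signs turned only in named genes that had not been called. After centring the changes were 0.41 for Gpnmb, 0.29 for Sfrp4, 0.0362 for H2-Aa and 0.0854 for H2-DMa. Without the 5 libraries that stand apart they were -0.0291 for Eno3, -0.26 for Pfkm, -0.26 for Pygm and -0.94 for Myl1 (adjusted p = 0.0495). With 1 sample left out they ran from -0.0096 to 1.21 for Eno3, from -0.0087 to 0.086 for Flt4, from -0.21 to 0.044 for Gpnmb, from -0.64 to 0.65 for Myl1 and from -0.24 to 0.66 for Pfkm. The median change of the 4 skeletal muscle genes was -0.60 without the 5 libraries and ran from -0.32 to 0.90 with 1 sample left out, against 0.40 with all. The causes were not tested. Depth is unknown, so no counting error can be given for any value.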
